A study of Homo sapiens with 9 samples.

Results

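Hyaluronan is a long unsulfated glycosaminoglycan of the pericellular matrix. Its synthases sit in the plasma membrane, join glucuronic acid and N-acetylglucosamine from their UDP-sugars, and push the growing chain out of the cell. CD44 is its main cell surface receptor, and hyaluronidases and hyaluronan depolymerising proteins shorten the chain. In breast cancer this matrix is studied for its part in invasion. Here 9 genes of this system were followed out of 58395 in the count files. They were the synthases HAS2 and HAS3, the precursor enzyme UGDH, the receptor CD44, the hyaluronidase family genes HYAL1, HYAL2 and HYAL3, and the depolymerising genes CEMIP and TMEM2. The genes were picked by function, apart from HAS2, which was picked because it is much lower after ZIP7 knockdown in these libraries. The values of HAS2 against the control are therefore a description, without a test. The other members and the gene lists below were also chosen with earlier results of these data known, which their tests do not allow for.

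RNA came from MDA-MB-231 cells, a triple-negative breast cancer line of mesenchymal character, 96 h after siRNA transfection. The 3 groups of 3 libraries received a nontargeting control siRNA (siNC), ZIP7 siRNA_1 (siZIP7_1) or ZIP7 siRNA_2 (siZIP7_2). Each siZIP7 group rests on a single siRNA against SLC39A7, the gene of the zinc transporter ZIP7, and the siRNAs came from different suppliers, so siRNA and supplier cannot be told apart. The cells were otherwise untreated and grown in DMEM with serum. The transfections were made in triplicate, and the p-values measure the spread between these libraries.

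Reads counted on genes ranged from 24153785 to 30454419 per library. Values are CPM, the reads of a gene relative to all counted reads of its library after TMM scaling, and levels of different genes are compared only as CPM per kb of exonic length. Changes were tested with edgeR's quasi-likelihood test, Benjamini-Hochberg adjustment over 16761 genes and a threshold of 0.05, and SE is the standard error of a log2 fold change. The mean SLC39A7 level was 329 ± 12.5 CPM in control cells and 35.6 ± 2.83 and 19.2 ± 1.45 CPM in siZIP7_1 and siZIP7_2 cells (SD, n = 3 each). Of the markers for the line, VIM, CAV1, AXL and KRT18 were abundant in every library, with sums of 7908 to 8442, 5092 to 5375 and 4160 to 4357 CPM for siNC, siZIP7_1 and siZIP7_2. Of those that the line should lack, ESR1 and PGR had at most 15 counts, CDH1 had 10 to 129 and EPCAM 98 to 327, and the list summed to 6.83 to 7.58, 13.9 to 14.6 and 5.67 to 6.27 CPM in the same order. Markers of other cell types (PTPRC, CD3E, CD14, PECAM1, CDH5) summed to 4.55 to 5.77, 1.51 to 1.86 and 18.9 to 22.3 CPM. The T cell marker CD3E had at most 1 count, PTPRC at most 28, and the higher sum with siZIP7_2 lay in CD14, PECAM1 and CDH5. The part of these markers in the results below was not tested. In bulk RNA, fewer cells of a kind and less RNA per cell cannot be told apart.

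Changes were common across the transcriptome, and the members' counts are to be read against that. With siZIP7_1, 70.7% of all tested genes were past the threshold, 34.8% higher and 35.9% lower. With siZIP7_2 it was 77.8%, 38.5% higher and 39.3% lower. HYAL1 was too low to be tested. Of the 7 members other than HAS2 that were tested, 5 passed with siZIP7_1, TMEM2 higher and UGDH, CD44, HYAL2 and CEMIP lower. With siZIP7_2, 6 passed, CD44 and TMEM2 higher and HAS3, UGDH, HYAL3 and CEMIP lower. These shares are close to the background. The CPM ranges of the 7 genes did not overlap with siNC in 7 cases with siZIP7_1 and 6 with siZIP7_2, where 72.1% and 78.7% of all genes did not. The median absolute log2 fold change of these 7 genes was 0.78 with siZIP7_1 and 0.55 with siZIP7_2, against 0.48 and 0.58 over all genes. TMEM2 was higher with both siRNAs, UGDH and CEMIP were lower with both, and CD44 went in opposite directions. Over all genes, 17.7% were higher with both, 20.8% lower with both and 18.7% in opposite directions.

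**Figure D1:**
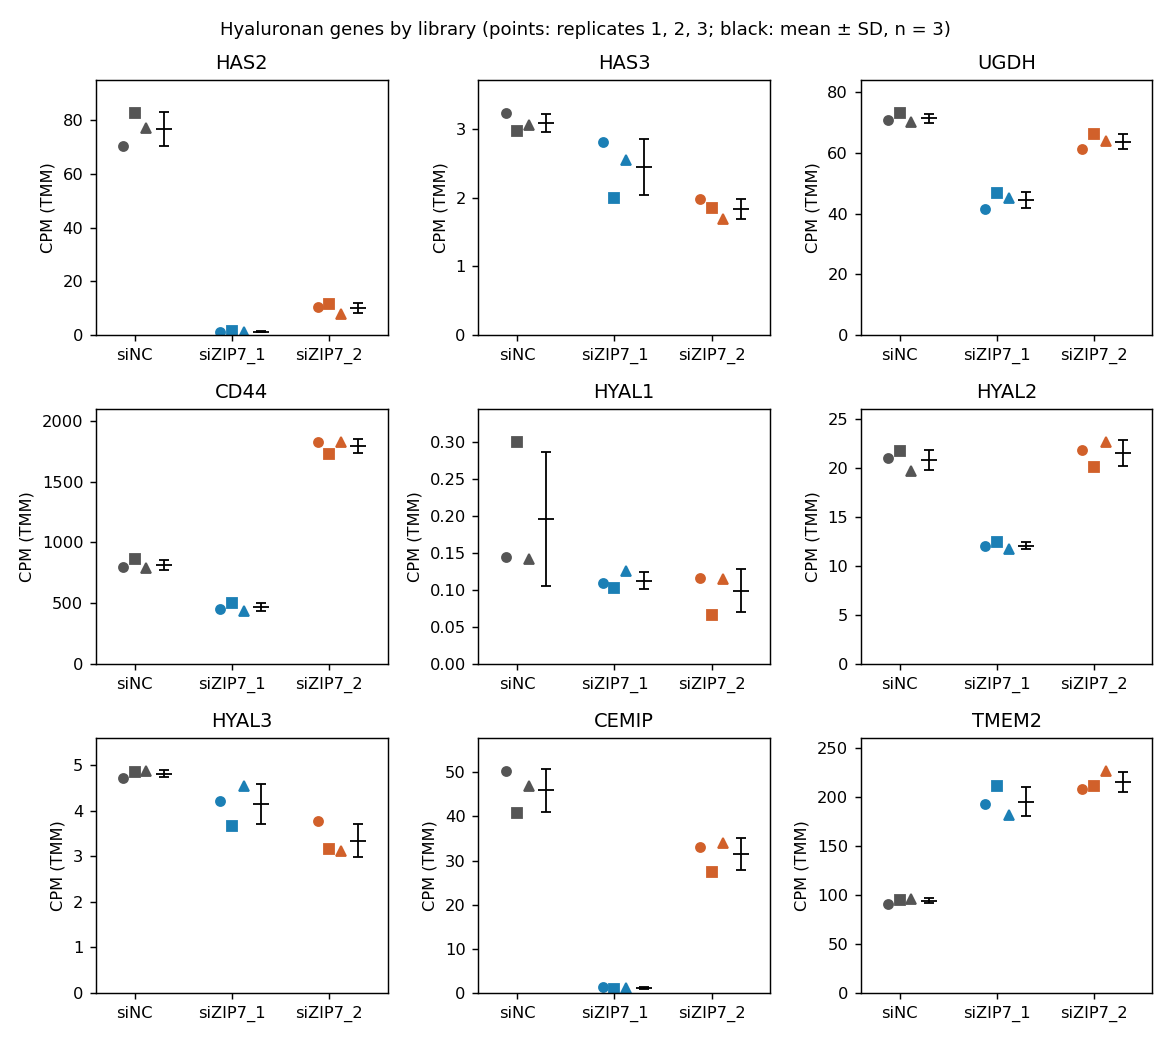
CPM after TMM scaling of the 9 hyaluronan genes in each library (y axis, linear from 0), with the 3 replicates of each siRNA as points and the mean ± SD (n = 3) in black. HAS2 and CEMIP lie near the axis with siZIP7_1, CD44 lies below siNC with siZIP7_1 and above it with siZIP7_2, and TMEM2 lies above siNC with both.

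HAS2 (ENSG00000170961), a hyaluronan synthase that makes long chains, is at 121612116 to 121641390 on the minus strand of chromosome 8 (GRCh38, as all positions below). Its level was 70.2, 82.6 and 77.2 CPM in the siNC libraries, 1.13, 1.65 and 1.10 CPM with siZIP7_1, and 10.6, 11.5 and 7.81 CPM with siZIP7_2. The 3 groups were far apart, with siNC high, siZIP7_2 low and siZIP7_1 lowest. Against siNC, HAS2 was 59.2-fold lower with siZIP7_1 (log2 fold change -5.89, SE 0.12) and 7.65-fold lower with siZIP7_2 (-2.94, SE 0.091). By size of the log2 fold change it was number 10 from the lowest of 16761 genes with siZIP7_1 and number 39 with siZIP7_2. These are the values that led to its choice. The siZIP7_1 libraries still had 31 to 48 reads on HAS2, above the floor of 3 counts used here for detection. HAS2 was 7.74-fold higher with siZIP7_2 than with siZIP7_1, a log2 difference of 2.95 (SE 0.16), which is also given without a test because it rests on the same libraries. The order of the residual levels differed from that of the targeted gene, since SLC39A7 was lower with siZIP7_2 than with siZIP7_1 (log2 difference -0.89, edgeR adjusted p = 4.89e-13).

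HAS2-AS1 (ENSG00000248690), an RNA transcribed from the opposite strand at the start of HAS2, was also lower with both siRNAs. Mean levels were 1.52 ± 0.105 CPM in siNC libraries and 0.223 ± 0.0883 and 0.499 ± 0.00557 CPM in siZIP7_1 and siZIP7_2 libraries (SD, n = 3 each). The log2 fold change with siZIP7_1 was -2.73 (edgeR adjusted p = 2.98e-09), and that with siZIP7_2 was -1.60 (edgeR adjusted p = 2.42e-06). HAS2-AS1 had only 6, 4 and 10 reads with siZIP7_1 and 13, 15 and 13 with siZIP7_2, so the sizes of these falls rest on few reads. Its exons share 201 bases with HAS2, 5.69% of its exonic length, and the strand setting of the counting is not given in the sources used here, so reads from that stretch cannot be assigned to a strand.

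HAS3 (ENSG00000103044), a synthase of shorter chains on chromosome 16 from 69105564 to 69118719, stayed at a low level in all groups. It had 3.23, 2.96 and 3.06 CPM with siNC, 2.80, 1.99 and 2.54 CPM with siZIP7_1, and 1.98, 1.84 and 1.69 CPM with siZIP7_2. Both siZIP7 groups lay below the siNC libraries. The change with siZIP7_1 was -0.34 on the log2 scale (SE 0.16, edgeR adjusted p = 0.0544) and missed the threshold, which it passed without siZIP7_1 replicate 1 (edgeR adjusted p = 0.0307). With siZIP7_2 HAS3 fell by 0.75 (SE 0.17, edgeR adjusted p = 0.00019). HAS1, the third synthase, had at most 2 counts in any library and is at or under the floor.

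Per kb of exonic length, HAS2 stood for nearly all synthase RNA in the control cells. Its share of the summed HAS1, HAS2 and HAS3 level was 96.8% ± 0.479 with siNC, 40.0% ± 9.62 with siZIP7_1 and 86.6% ± 1.27 with siZIP7_2 (SD, n = 3 each). Nearly all of the rest was HAS3, at 3.11% ± 0.377 with siNC (SD, n = 3). The larger share of HAS3 with siZIP7_1 came with a HAS3 level that was no higher than in control cells, since the summed level of the synthases was 18.9 ± 1.44 CPM per kb with siNC, 0.771 ± 0.0285 with siZIP7_1 and 2.74 ± 0.493 with siZIP7_2 (SD, n = 3 each).

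**Figure D2:**
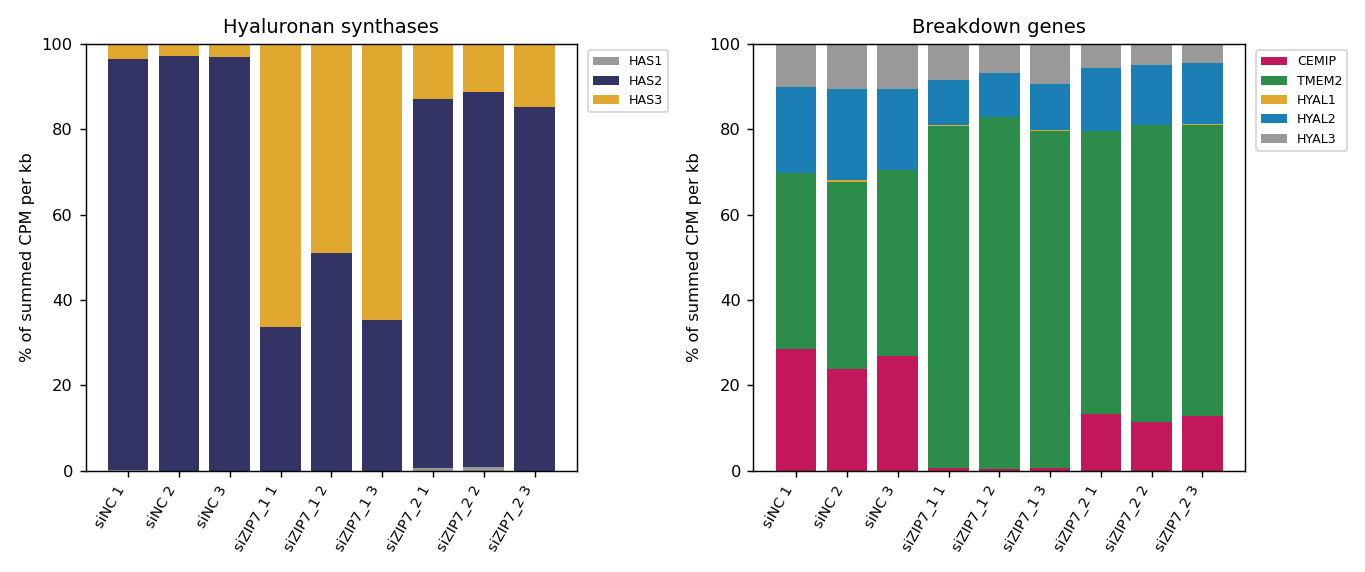
Share of each gene in the summed CPM per kb of exonic length (y axis, percent) of the 3 hyaluronan synthases (left) and of the 5 breakdown genes (right), 1 bar per library. HAS2 makes up 96.8% of the synthase level with siNC and 40.0% with siZIP7_1, and CEMIP goes from 26.4% of the breakdown genes with siNC to 0.606% with siZIP7_1.

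UGDH (ENSG00000109814), on chromosome 4 from 39498755 to 39528311, oxidises UDP-glucose to UDP-glucuronic acid and so supplies one of the sugars that the synthases join. It was at 70.9, 73.1 and 70.2 CPM with siNC, 41.6, 46.8 and 45.2 CPM with siZIP7_1 and 61.2, 66.1 and 63.7 CPM with siZIP7_2. The groups did not overlap, with siZIP7_1 lowest. UGDH fell by 0.68 on the log2 scale with siZIP7_1 (SE 0.054, edgeR adjusted p = 2.81e-12), to 62.4% of the siNC mean. The smaller fall with siZIP7_2, by 0.16 (SE 0.052, edgeR adjusted p = 0.0061), was lost with upper-quartile normalization (-0.06), with at least 10 counts asked for in every library (-0.09) and without siZIP7_2 replicate 1 (-0.13). UGDH-AS1 overlaps 7.24% of its exonic length on the other strand and rose by 1.34 with siZIP7_1. For CD44, HAS3 and CEMIP, exons of other genes, all on the other strand, covered at most 6.90% of the exonic length of the member. CHTF8, which overlaps HAS3, averaged 137 CPM with siNC and fell with both siRNAs, by 0.44 and 0.32. MESD, which overlaps CEMIP, was at -0.08 and -0.10, short of the threshold. AC027808.1, which also overlaps CEMIP, had 0 reads in every library. CD44-AS1, with 5 to 35 reads a library, was at -0.62, short of the threshold, and at 1.37.

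The wider UDP-sugar supply list comprised 10 genes, though UXS1 and OGT in it use these sugars. Of the 10 genes, 3 were higher and 4 lower with siZIP7_1. With siZIP7_2, 8 were higher, UXS1 and OGT among them, and none lower. Over all tested genes, 34.8% were higher and 35.9% lower with siZIP7_1, and 38.5% and 39.3% with siZIP7_2. The medians of the list were -0.03 and 0.50 on the log2 scale, against -0.0069 and -0.0018 over all genes. The hexosamine pathway, which makes UDP-N-acetylglucosamine, begins with the paralogs GFPT1 and GFPT2. GFPT1 rose with both siRNAs, and averaged 176 ± 4.61 CPM in siNC, 330 ± 14.5 in siZIP7_1 and 273 ± 5.53 in siZIP7_2 libraries (SD, n = 3 each). GFPT2 was at 105, 98.5 and 102 CPM with siNC, 4.04, 4.36 and 3.92 CPM with siZIP7_1, and 341, 327 and 319.6 CPM with siZIP7_2. It thus fell by 4.63 on the log2 scale with siZIP7_1 (SE 0.069, edgeR adjusted p = 1.80e-28) and rose by 1.69 with siZIP7_2 (SE 0.047, edgeR adjusted p = 8.24e-23). UAP1, the last step to UDP-N-acetylglucosamine, also split, at -0.53 and 0.79. PGM1, a phosphoglucomutase, moved likewise by less, at -0.41 and 0.27. UXS1, which turns UDP-glucuronic acid into UDP-xylose, rose by 1.09 with siZIP7_2 and had a log2 value of -0.08 with siZIP7_1, short of the threshold. The difference between the siRNAs for UXS1 was 1.17 (edgeR adjusted p = 2.77e-17). OGT, which uses UDP-N-acetylglucosamine to modify proteins, was at 0.02 with siZIP7_1, short of the threshold, and rose by 0.36 with siZIP7_2.

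CD44 (ENSG00000026508), on chromosome 11 from 35138870 to 35232402, was the most abundant member in every group. It was at 800.5, 861 and 787 CPM in the siNC libraries, 456, 502 and 438 CPM with siZIP7_1, and 1824, 1727 and 1826 CPM with siZIP7_2. The groups did not overlap, and the siZIP7 groups lay on either side of siNC. CD44 fell by 0.81 on the log2 scale with siZIP7_1 (SE 0.053, edgeR adjusted p = 4.17e-14), to 57.0% of the siNC mean. With siZIP7_2 it rose by 1.14 (SE 0.053, edgeR adjusted p = 1.30e-17), or 2.20-fold. The siRNAs differed from each other by 1.95 (SE 0.054, edgeR adjusted p = 4.27e-23), or 3.85-fold. The counts are per gene, so the variant exons of CD44 cannot be seen in them.

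**Figure D3:**
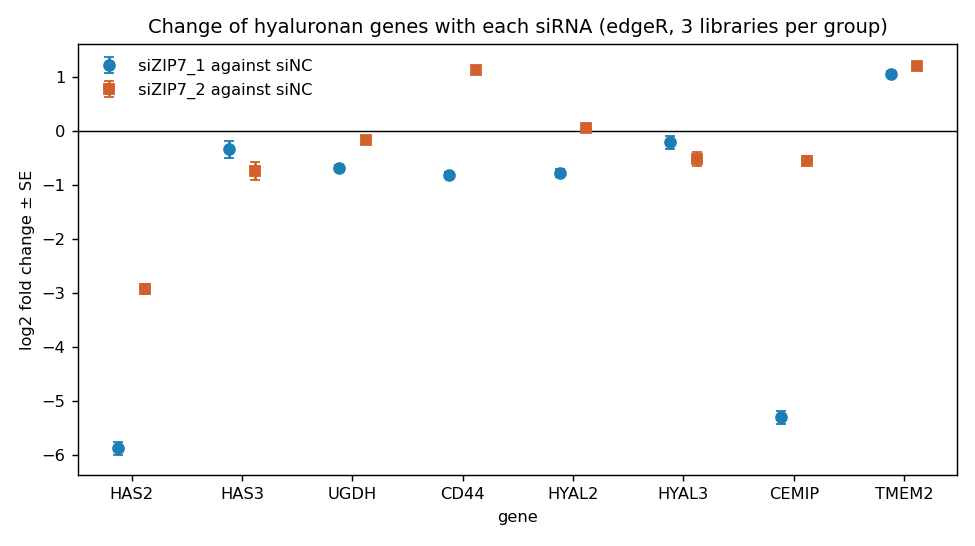
Log2 fold change against siNC with its standard error (y axis) for the 8 members above the low-count filter (x axis), with circles for siZIP7_1 and squares for siZIP7_2. HAS2 and CEMIP reach -5.89 and -5.31 with siZIP7_1, CD44 lies at -0.81 and 1.14, and TMEM2 at 1.05 and 1.19. HAS2 is shown as a description.

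Genes that anchor, cut or splice CD44 were read next to it. Of the 10 in this list, 4 were higher and 2 lower with siZIP7_1, and 4 were higher and 5 lower with siZIP7_2. Over all tested genes, 70.7% and 77.8% were past the threshold. MMP14, a membrane metalloprotease that can shed CD44, had the same split as CD44. It averaged 1379 ± 32.7 CPM in siNC libraries, fell to 467 ± 3.72 CPM in siZIP7_1 libraries and rose to 3076 ± 138 CPM in siZIP7_2 libraries (SD, n = 3 each), a 2.95-fold lower and a 2.23-fold higher level. The ERM proteins link CD44 to actin. Among them MSN (moesin) rose with both siRNAs, by 0.29 and 1.06. RDX (radixin) rose by 0.22 with siZIP7_1 and fell by 0.71 with siZIP7_2. EZR (ezrin) was at 0.09 with siZIP7_1, short of the threshold, and fell by 0.25 with siZIP7_2. The siZIP7_1 value passed with upper-quartile normalization (0.12), with at least 10 counts in every library (0.11) and in the pairwise fit (0.10). ESRP2, an epithelial splicing factor that acts on CD44, was low, at 1.69 ± 0.125 CPM with siNC, and fell by 1.00 with siZIP7_2.

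CEMIP (ENSG00000103888) is needed for the depolymerisation of hyaluronan in fibroblasts and lies on chromosome 15 from 80779343 to 80951776. It was at 50.3, 40.7 and 46.8 CPM with siNC, 1.35, 0.996 and 1.13 CPM with siZIP7_1, and 33.0, 27.4 and 34.0 CPM with siZIP7_2. The siZIP7_1 libraries held 29 to 37 reads each, and no library of one group reached the range of another. CEMIP fell by 5.31 on the log2 scale with siZIP7_1 (SE 0.12, edgeR adjusted p = 1.60e-24), to 2.52% of the siNC mean, and was number 23 from the lowest of the 16761 genes. With siZIP7_2 it fell by 0.55 (SE 0.076, edgeR adjusted p = 1.88e-07), to 68.5%. Between the siRNAs CEMIP differed by 4.76 (SE 0.13, edgeR adjusted p = 2.40e-23), the largest among the members. Among all genes it was number 219 from the highest for this difference, and HAS2 was number 621.

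The sequence before the RefSeq start of CEMIP is shown with that of HAS3. A sequence was shown only where GENCODE exons covered at most 30 of its bases. Of the matched members this held for CEMIP and HAS3 alone. RefSeq promoter windows (GRCh38.p14) were matched for 7 of the 9 members. The 250 bases before the RefSeq start are given 5′ to 3′, for CEMIP at chr15:80779120-80779369 and for HAS3 at chr16:69107290-69107539, both on the plus strand. RefSeq and GENCODE starts differ for both genes. The HAS3 window lies inside the gene as given above (69105564 to 69118719) and holds no exonic bases of GENCODE. The CEMIP window runs past the gene start given above (80779343), with 27 of its bases in GENCODE exons. Capitals mark matches to the motifs searched on both strands.
CEMIP: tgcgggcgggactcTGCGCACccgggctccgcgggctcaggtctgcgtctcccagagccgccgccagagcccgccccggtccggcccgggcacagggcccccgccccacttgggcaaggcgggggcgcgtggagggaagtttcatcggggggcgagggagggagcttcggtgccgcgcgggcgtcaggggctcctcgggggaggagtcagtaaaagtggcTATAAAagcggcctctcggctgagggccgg
HAS3: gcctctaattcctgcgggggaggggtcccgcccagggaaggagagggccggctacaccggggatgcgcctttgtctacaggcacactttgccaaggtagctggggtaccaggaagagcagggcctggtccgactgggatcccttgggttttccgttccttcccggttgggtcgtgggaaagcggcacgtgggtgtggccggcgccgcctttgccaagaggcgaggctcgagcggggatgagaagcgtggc
The motifs were the metal response element core (TGCACNC or TGCGCNC), the AP-1 site (TGACTCA), the cyclic AMP response element (TGACGTCA), the ER stress response element, the TEAD site (GGAATG) and the TATA box (TATAAA). CEMIP held a metal response element core 236 bases and a TATA box 30 bases before the RefSeq start, and HAS3 held no match. In all 35116 windows the metal response element core was present in 24.8%, the TATA box in 10.7%, the AP-1 site in 4.2%, the cyclic AMP response element in 1.65% and the ER stress response element in 0.074%. Both windows were rich in G and C, at 74.4% and 66% against a median of 58%. UGDH and HYAL2 held 1 TEAD site each, a motif present in 11.9% of windows, and CD44, TMEM2 and HYAL1 held no match. GENCODE exons covered 250 of the 250 bases for CD44 and TMEM2, 179 for UGDH, 161 for HYAL2 and 83 for HYAL1. For these genes the windows are thus transcribed sequence in part or in full. These matches describe the letters and do not show that a factor binds.

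TMEM2 (ENSG00000135048), named CEMIP2 in GENCODE 29, is a membrane protein related to CEMIP that was described as a cell surface hyaluronidase. It lies on chromosome 9 from 71683366 to 71816690. Its level was 91.3, 95.3 and 95.9 CPM with siNC, 193, 211 and 182 CPM with siZIP7_1, and 208, 211 and 227 CPM with siZIP7_2. Every siZIP7 library lay above every siNC library, and the ranges of the siZIP7 groups overlapped. TMEM2 rose by 1.05 on the log2 scale with siZIP7_1 (SE 0.053, edgeR adjusted p = 1.10e-16) and by 1.19 with siZIP7_2 (SE 0.053, edgeR adjusted p = 5.05e-18). Between the siRNAs TMEM2 differed by 0.14 (SE 0.051, edgeR adjusted p = 0.0146). It lost the threshold without siZIP7_1 replicate 1 (0.12), without siZIP7_1 replicate 3 (0.08), without siZIP7_2 replicate 3 (0.10) and with no low-count filter (0.09).

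The hyaluronidase family genes HYAL3, HYAL1 and HYAL2 lie side by side on the minus strand of chromosome 3, from 50292831 to 50322906. HYAL2 (ENSG00000068001), an enzyme anchored to the cell surface that cuts long chains, was at 21.1, 21.7 and 19.7 CPM with siNC, 12.1, 12.4 and 11.7 CPM with siZIP7_1 and 21.8, 20.1 and 22.7 CPM with siZIP7_2. Only the siZIP7_1 libraries stood apart among the 3 groups. HYAL2 fell by 0.78 on the log2 scale with siZIP7_1 (SE 0.074, edgeR adjusted p = 1.51e-10). With siZIP7_2 its log2 value was 0.05 (SE 0.070, edgeR adjusted p = 0.542), and the siRNAs differed by 0.83 (SE 0.074, edgeR adjusted p = 2.56e-11). The gene TUSC2 on the same strand covers 11.2% of the exonic length of HYAL2 and had log2 fold changes of -0.88 and 0.36.

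HYAL3 (ENSG00000186792), a family member whose activity is less well understood, had 4.72, 4.85 and 4.88 CPM with siNC, 4.22, 3.68 and 4.55 CPM with siZIP7_1, and 3.77, 3.16 and 3.11 CPM with siZIP7_2. The siNC libraries were the highest. With siZIP7_1 the log2 value was -0.21 (SE 0.12, edgeR adjusted p = 0.13), and with siZIP7_2 HYAL3 fell by 0.53 (SE 0.13, edgeR adjusted p = 0.00064). NAA80, on the same strand, covers 12.2% of the exonic length of HYAL3 and had log2 values of 0.48 and -0.21. IFRD2, also on the same strand, covers 2.12% of it. IFRD2 was far more abundant, at 122 CPM on average with siNC, and fell with both siRNAs, by 0.68 and 0.92. The part of reads from these shared stretches in the HYAL3 values was not tested. HYAL1 (ENSG00000114378), the lysosomal hyaluronidase, had 4, 7 and 4 reads with siNC, 3, 3 and 4 with siZIP7_1 and 3, 2 and 3 with siZIP7_2. At this depth no difference could be tested for it.

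Between the siRNAs, 7 of 7 tested members other than HAS2 passed the threshold, where 78.7% of all genes did. With siZIP7_2, 5 were higher and 2 lower than with siZIP7_1, against 38.1% and 40.6% of all genes. The CPM ranges of 5 did not overlap, against 79.7% of all genes. For HAS3 (log2 difference -0.41, edgeR adjusted p = 0.0297) and HYAL3 (-0.32, edgeR adjusted p = 0.0308) the call rested on single libraries. Each was lost when siZIP7_1 replicate 1 or 3, or siZIP7_2 replicate 2 or 3, was left out, with adjusted p from edgeR between 0.0585 and 0.133. Both were also lost with DESeq2 (adjusted p = 0.0986 and 0.112). The count of members was 4 without siZIP7_1 replicate 1, siZIP7_1 replicate 3 or siZIP7_2 replicate 3. Tested against a change of 1.8-fold, 2 of these 7 members passed between the siRNAs, CD44 and CEMIP, where 28.2% of all genes did. In the same test against siNC, CEMIP and TMEM2 passed with siZIP7_1 and CD44 and TMEM2 with siZIP7_2, 2 of 7 members each, where 16.9% and 24.7% of all genes did.

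In control cells the members ranked by CPM per kb as CD44 (81.6 ± 3.93), HAS2 (18.3 ± 1.48), UGDH (17.6 ± 0.373), TMEM2 (9.79 ± 0.258), CEMIP (6.03 ± 0.636), HYAL2 (4.59 ± 0.226), HYAL3 (2.37 ± 0.0419), HAS3 (0.583 ± 0.0255) and HYAL1 (0.0626 ± 0.0289), as mean ± SD with n = 3 each. Of these neighbours HAS2 and UGDH overlapped in their ranges, and the others did not. With siZIP7_1 the order from the top was CD44 (46.5 ± 3.27), TMEM2 (20.3 ± 1.54), UGDH (11.0 ± 0.665) and HYAL2 (2.66 ± 0.0771), with HAS2 (0.308 ± 0.0739) now below HAS3 (0.462 ± 0.0783), their ranges overlapping. With siZIP7_2 CD44 (179 ± 5.67), TMEM2 (22.4 ± 1.05) and UGDH (15.7 ± 0.595) led, and HAS2 was at 2.38 ± 0.458. Among the 5 breakdown genes TMEM2 made up 42.9% ± 1.56 of the summed level per kb with siNC, 80.5% ± 1.67 with siZIP7_1 and 68.0% ± 1.65 with siZIP7_2 (SD, n = 3 each). The sum itself was 22.8 ± 0.295 CPM per kb with siNC, 25.2 ± 1.38 with siZIP7_1 and 32.9 ± 1.55 with siZIP7_2 (SD, n = 3 each).

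Other breakdown enzymes include exoglycosidases, and GUSB is one that finishes hyaluronan fragments in the lysosome. That role is not implied for HEXD. Of 5 genes, 4 were tested, 1 was higher and none lower with siZIP7_1, and 2 were lower and none higher with siZIP7_2. The shares past the threshold over all genes were 70.7% and 77.8%. GUSB, beta-glucuronidase, fell by 0.62 with siZIP7_2. Its rise by 0.12 with siZIP7_1 was lost when siNC replicate 1 or 3 or siZIP7_1 replicate 1 or 2 was left out. That rise was also lost with DESeq2 and with no low-count filter (0.11 in each of these cases). HEXD was at 0.09 with siZIP7_1, short of the threshold that it passed without siZIP7_1 replicate 2 (0.15), and fell by 1.05 with siZIP7_2.

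Among 7 other receptors, LYVE1, STAB1 and STAB2 were too low to be tested. Of the 4 tested, 2 rose and 1 fell with siZIP7_1, and 3 rose and 1 fell with siZIP7_2. The background was 70.7% and 77.8% of all genes past the threshold. TLR4, a pattern receptor reported to sense hyaluronan fragments, rose from 51.8 ± 2.71 CPM in siNC libraries to 181 ± 12.7 in siZIP7_1 and 190.1 ± 5.82 in siZIP7_2 libraries (SD, n = 3 each), or 3.49-fold and 3.67-fold. LAYN (layilin) rose by 0.87 and 1.57. TLR2 was at 0.50 with siZIP7_1, short of the threshold that it passed without siNC replicate 3 (0.75) or siZIP7_1 replicate 3 (0.76), and rose by 2.32 with siZIP7_2. HMMR, the receptor RHAMM and a gene of dividing cells, fell by 1.64 with siZIP7_2. Its fall by 0.27 with siZIP7_1 was lost without siNC replicate 3 (-0.18), siZIP7_1 replicate 1 (-0.24) or siZIP7_1 replicate 3 (-0.22).

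Of 17 hyaluronan-binding matrix proteins only 5 were expressed enough to be tested. With siZIP7_1, 2 were higher and 3 lower, and with siZIP7_2, 4 were higher. Among all tested genes 70.7% and 77.8% passed. PTX3, a pentraxin that crosslinks hyaluronan through heavy chains of inter-alpha-inhibitor, had the highest level per kb of the list. PTX3 rose from 97.7 ± 7.86 CPM in siNC libraries to 180.3 ± 12.5 in siZIP7_1 and 446 ± 49.9 in siZIP7_2 libraries (SD, n = 3 each), log2 fold changes of 0.88 and 2.19. HAPLN3, a link protein, fell by 0.50 with siZIP7_1 and rose by 1.49 with siZIP7_2. TNFAIP6, which moves heavy chains onto hyaluronan, had 9, 3 and 13 reads with siNC, 2, 1 and 0 with siZIP7_1 and 44, 28 and 33 with siZIP7_2. ITIH3, such a heavy chain, had 1, 0 and 1 reads with siNC, 36, 37 and 48 with siZIP7_1 and 6, 6 and 7 with siZIP7_2. TNFAIP6 with siZIP7_1 and ITIH3 with siNC stayed under 3 reads, so the fold changes that rest on these groups have no usable size. Against siNC, TNFAIP6 rose by 2.01 with siZIP7_2 (SE 0.35, edgeR adjusted p = 8.30e-06), from a low level.

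Sulfated glycosaminoglycans draw on the same UDP-glucuronic acid. Of 24 genes for their synthesis, 23 were tested. There were 8 higher and 9 lower with siZIP7_1, and 12 higher and 7 lower with siZIP7_2. The shares of all tested genes past the threshold were 70.7% and 77.8%. CSGALNACT1 and CSGALNACT2, paralogs that start chondroitin chains, moved apart. CSGALNACT1 averaged 4.49 ± 0.390 CPM in siNC, 0.180 ± 0.067 in siZIP7_1 and 1.74 ± 0.262 in siZIP7_2 libraries (SD, n = 3 each), log2 fold changes of -4.60 and -1.37. Its siZIP7_1 libraries had 6, 3 and 7 reads, near the floor of 3 counts, so the size of the -4.60 is uncertain. CSGALNACT2 rose 2.82-fold and 5.05-fold. CHST3, a chondroitin sulfotransferase, averaged 73.8 ± 2.74 CPM in siNC libraries and rose to 222 ± 3.29 and 334 ± 22.9 CPM (SD, n = 3 each), by 1.59 and 2.18 on the log2 scale. CHPF2, a chondroitin polymerising factor, rose by 0.55 and 1.17. CHST11, another chondroitin sulfotransferase, fell by 0.56 with siZIP7_1 and rose by 0.14 with siZIP7_2. The rise was lost without siZIP7_2 replicate 3 (0.11) and with no low-count filter (0.09). EXT1, a heparan sulfate polymerase, was at 0.05 with siZIP7_1, short of the threshold, and fell by 0.47 with siZIP7_2.

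Over all 75 genes of these lists, HAS1 and HAS2-AS1 included, 57 were tested. With siZIP7_1, 20 were higher and 20 lower, and with siZIP7_2, 31 were higher and 16 lower. This is 40 and 47 of 57 genes, where 70.7% and 77.8% of all genes were called. Their median log2 fold changes were 0.06 and 0.26. Both comparisons share the siNC libraries.

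**Figure D4:**
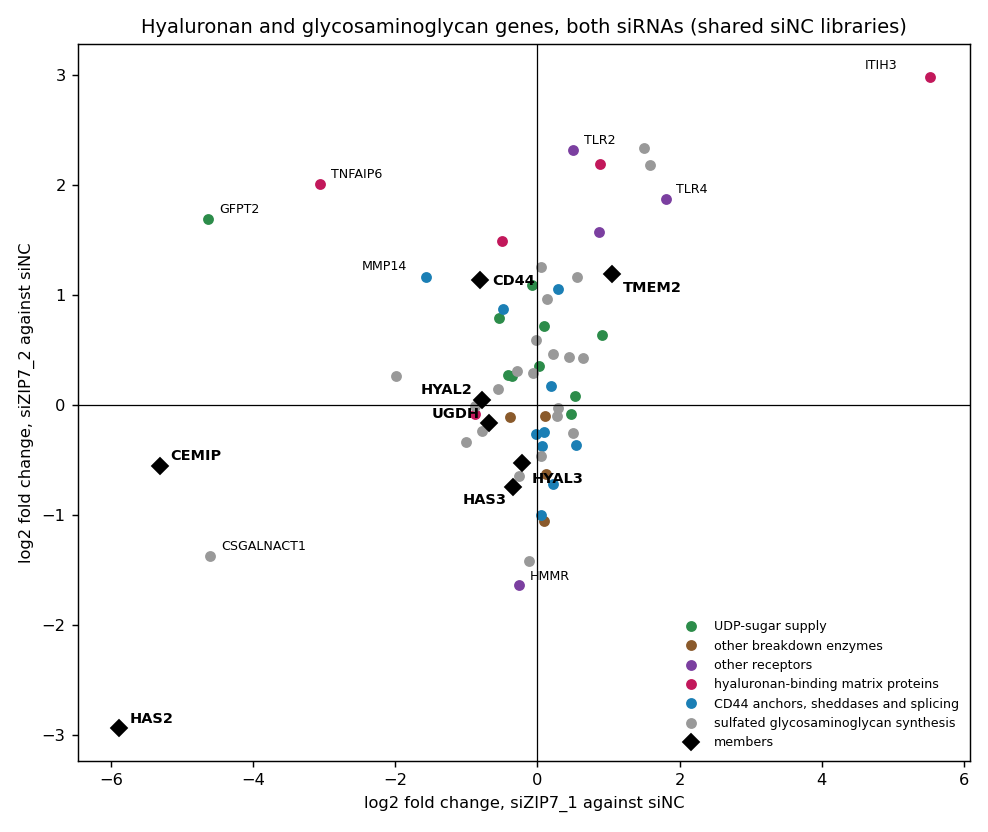
Log2 fold change against siNC with siZIP7_1 (x axis) and siZIP7_2 (y axis) for the tested members (black diamonds) and the tested genes of 6 related lists (coloured points), with the same siNC libraries in both. HAS2 and CEMIP lie far to the left below the horizontal line, GFPT2, TNFAIP6, MMP14 and CD44 lie to the left above it, and TMEM2 and TLR4 lie to the upper right. The fitted value of TNFAIP6 with siZIP7_1 and both values of ITIH3 rest on a group of at most 3 reads a library and give no usable size.

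The genes closest to HAS2 in pattern were HLA-DOA, SYT2, PLEKHG4B, HLA-DPB1 and APOBEC3G. Likeness was the root mean square difference of log2 CPM, centred on siNC, over the 9 libraries and among 13735 other genes whose mean reached 1 CPM, and it ran from 0.71 to 1.06 for these 5. No gene was closer to HAS2 than 0.71. With siZIP7_1, HLA-DOA had 1, 0 and 1 reads and APOBEC3G had 1, 4 and 2, near the floor of 3 counts. The size of their log2 values there is not supported by the counts. The pattern matched includes the fall of HAS2 that led to its choice. For CD44 the closest were ABTB2, PNP, CTSL, FUT11 and MBD5, at 0.06 to 0.10.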

How the data were processed

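RNA-seq was performed on 9 libraries of MDA-MB-231 cells as single reads. The authors deposited 1 file a library with the raw counts of every Ensembl gene, not normalized. The submitters' processing notes name Trim Galore 0.4.1, FastQC 0.11.2, STAR, HTSeq 0.6.1 and DESeq2 1.16.1, and the genome build, annotation and strand setting are not given in the sources used here. Summary lines of the counting program (reads on no gene, 7.43% to 11.5%, and ambiguous reads, 2.66% to 2.91%) were left out. Of 58395 identifiers, 58275 were in GENCODE 29 (GRCh38), which gave symbols, positions and exonic lengths. TMEM2 and HEXD were found there as CEMIP2 and HEXDC.

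The counts were fitted with edgeR 4.0.16 under R 4.3.3 (TMM, low-count filter over the groups, one fit of 3 groups with 6 residual degrees of freedom, quasi-likelihood test, Benjamini-Hochberg adjustment). The floor of 3 counts covers counting error only and comes to at most 0.124 CPM. DESeq2 1.42.0, other scalings, other filters, a replicate block, a test against 1.8-fold, pairwise fits and each library left out were alternatives. The fit was tested on simulated data with known changes. The members and gene lists were chosen with earlier results of these data known. Named genes are the members, the genes with the 3 highest levels per kb and 3 largest mean log2 fold changes of both siRNAs in each list, genes overlapping members and the 5 nearest in pattern. A gene of the breakdown list was left out of the list and is not reported here, and no other gene was named in its place. Matches to promoter motifs were counted in RefSeq windows and the motifs were chosen after the counts were seen. Replicate numbers were not used as pairs in the main fit. Correlations of same-numbered libraries ran from -0.0998 to 0.0985, which with 3 libraries a group cannot exclude a pairing.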

Additional observations from a re-analysis of the deposited data

Results flagged for a closer look

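These results were picked out because the siRNAs moved the same gene to opposite sides of siNC, each past the threshold, and differed from each other in edgeR's direct test between them. Such genes were 18.7% of all tested genes and 15 of the 57 tested genes of the related lists. Of the latter, the values below are for those that the rule for named genes picked out. The difference of siZIP7_2 minus siZIP7_1 on the log2 scale was 1.95 for CD44, the only member among them. In the UDP-sugar supply it was 6.32 for GFPT2, 1.33 for UAP1 and 0.68 for PGM1. For hyaluronan-binding proteins it was 1.99 for HAPLN3 and 5.07 for TNFAIP6, whose siZIP7_1 libraries had at most 2 reads, so that the size is not supported by the counts. MMP14, which can shed CD44, differed by 2.72, and CHST11 by 0.70. RDX (-0.93) and GUSB (-0.74) went the other way, higher with siZIP7_1 and lower with siZIP7_2.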

How the results depend on the processing

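The 21 values of the tested members other than HAS2 were recomputed under 17 alternatives, and 319 of 357 recomputed values kept their direction and side of the threshold. The test against 1.8-fold moved the counts most, to 2 members with siZIP7_1 (CEMIP and TMEM2), 2 with siZIP7_2 (CD44 and TMEM2) and 2 between the siRNAs (CD44 and CEMIP), and to 11 and 20 genes of the related lists with siZIP7_1 and siZIP7_2, since it asks for a larger change. Leaving out 1 library gave 5 to 6 members with siZIP7_1, 5 to 6 with siZIP7_2, 4 to 7 between the siRNAs, and 37 to 41 and 47 to 48 genes of the related lists. The 4 were reached without siZIP7_1 replicate 1, siZIP7_1 replicate 3 or siZIP7_2 replicate 3, when HAS3, HYAL3 and TMEM2 lost the threshold between the siRNAs.

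Signs changed for values near 0. HYAL2 with siZIP7_2 was -0.0042 with no low-count filter. With 1 library left out, OGT with siZIP7_1 ran from -0.0432 to 0.079 and ESRP2 with siZIP7_1 from -0.0657 to 0.11. None of these was called in the fit with all libraries. The cause was not tested. Upper-quartile normalization brought HYAL2 with siZIP7_2 past the threshold (0.15) and raised the median of siZIP7_2 against siNC by 0.11 on the log2 scale.

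Replicate numbers are shared between groups but no source says that they mark a batch. With the replicate block the counts were 5, 6 and 7 members and 40 and 47 related genes, and no call of a member changed. Only 2 of 9 libraries correlated best with their own number. Over all genes the block gave 11927 calls with siZIP7_1 and 13080 with siZIP7_2, against 11851 and 13038. Depth limits HYAL1, HAS1, HAS2-AS1, ITIH3, TNFAIP6 and CSGALNACT1, with groups near the floor of 3 counts.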
